A study of Homo sapiens with 4 samples.

Results

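The genes described here are 8 protein kinase genes of the splicing machinery and its relatives: CLK1, CLK2, CLK3 and CLK4, SRPK1 and SRPK2, and DYRK1A and DYRK1B. They were chosen by name, as the rows of the gene table whose Ensembl identifiers map to these symbols, and all 8 were found among 60617 identifiers. Expression was measured by RNA sequencing in 2 human prostate cancer lines, 22Rv1, derived from a xenograft, and PC3, derived from a bone metastasis. Untreated 22Rv1 cells were compared with 22Rv1 cells given 75 µM morusin, and untreated PC3 cells with PC3 cells given 46 µM morusin, for 6 h in each case. Morusin is a prenylated flavone of mulberry root bark. All cells received heat-inactivated fetal bovine serum and antibiotics, but 22Rv1 was grown in RPMI and PC3 in F12, so line, medium and dose cannot be told apart. Each of the 4 groups held 1 library, so a difference within a line has no replicate check and carries no p-value.

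Splicing of pre-mRNA depends on SR proteins, whose tails of arginine and serine repeats are phosphorylated by several kinases in turn. SRPK kinases act mainly in the cytoplasm, where phosphorylation of new SR proteins lets the import receptor TNPO3 carry them into the nucleus. CLK kinases sit in the nucleus and phosphorylate the same tails further, which releases SR proteins from nuclear speckles to sites of transcription. DYRK1 kinases are relatives of the CLK family that also enter the nucleus. DYRK1A phosphorylates splicing factors, NFAT factors and the DREAM complex subunit LIN52, and DYRK1B is linked to the quiescent state. CLK genes are known for transcripts that keep introns and stay in the nucleus until they are spliced under stress.

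The CLK kinases are also called LAMMER kinases after a conserved stretch of the catalytic domain. The bases that code for it are shown as the stretch that gives the family its name. They are written 5′ to 3′ on the coding strand, from GENCODE 29 transcripts on GRCh38, with capitals at bases that differ from CLK1.
CLK1: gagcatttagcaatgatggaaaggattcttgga
CLK2: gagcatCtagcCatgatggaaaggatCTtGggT
CLK3: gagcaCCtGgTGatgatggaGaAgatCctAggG
CLK4: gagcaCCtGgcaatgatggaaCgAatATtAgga
These 33 bases lie at chr2:200854648-200854680 (minus strand), chr1:155264253-155264285 (minus strand), chr15:74628619-74628651 (plus strand) and chr5:178605335-178605367 (minus strand), each within a single coding exon. CLK2 differed from CLK1 at 6 of the 33 bases, CLK4 at 8 and CLK3 at 10. The CLK3 bases code for a variant of the stretch that does not spell LAMMER. How well reads of the genes can be told apart depends on whole transcripts. The longest exact run shared by transcripts of CLK1 and CLK4 was 34 bases, well below the read length of 150 bases. Between SRPK1 and SRPK2 it was 23 bases, and between DYRK1A and DYRK1B 16 bases. The processed pseudogene CLK2P1 shared a longer run with CLK2, of 124 bases, but was listed at 0 in all 4 libraries. SRPK2P, which shared 90 bases with SRPK2, was also listed at 0, and CLK3P2 reached at most 0.119 FPKM.

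Levels were deposited as FPKM, fragments scaled to transcript length and to the library's mapped fragments, which allows levels of different genes to be compared per length. The summed FPKM of a library ranged from 335458 to 408628, and depth inferred from the steps between low values was 19.1 to 40.6 M read pairs, a rough estimate. On that basis each of the 8 genes rested on about 92.5 to 8011 pairs per library. Markers of the prostate luminal epithelium bore on the labels. All 10 were at 1 FPKM or more in the 22Rv1 libraries and 5 were in the PC3 libraries, where KLK2 and KLK3 were at 0. The 3 basal markers were below 1 FPKM in all 4 libraries. Of 13 markers of leukocytes, fibroblasts and endothelium, 1 reached 1 FPKM in 22Rv1 and 3 in PC3, where CD68 made up most of their summed level of 30.5 FPKM untreated and 42.5 treated, and their part in the kinase values was not tested. The endothelial markers VWF and CDH5 and the B cell marker MS4A1 were at 0 in all libraries.

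All 8 kinase genes were expressed in both lines, with CLK2 leading in 22Rv1 and SRPK1 in PC3. CLK2 phosphorylates SR proteins and is the member with the widest gap between the untreated lines. It was at 44.6 FPKM in untreated 22Rv1 and 14.8 in untreated PC3, 3.01-fold higher, a log2 ratio of 1.53 on the FPKM + 1 scale. It was the only member at least 2-fold apart, against 39% of all 14363 genes, of which 19.8% stood higher in untreated 22Rv1 and 19.2% lower. Of the 8 genes, 5 were above 0, as were 53.9% of all genes. SRPK1, the main cytoplasmic SR protein kinase, was at 27.04 FPKM in 22Rv1 and 44.1 in PC3, the other way round. Its relative SRPK2 was at 27.7 and 18.3 FPKM. The untreated lines were close for CLK1, at 15.05 and 13.3 FPKM, for CLK3, at 11.9 and 11.1 FPKM, and for DYRK1A, at 12.2 and 10.96 FPKM. CLK4 and DYRK1B were the lowest members in both lines, CLK4 at 2.51 and 4.46 FPKM and DYRK1B at 2.84 and 4.65 FPKM. Among genes at 1 FPKM or more in untreated 22Rv1, 11.6% had a higher level than CLK2 and 83.7% a higher level than CLK4.

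The order of levels in untreated 22Rv1 was CLK2, SRPK2, SRPK1, CLK1, DYRK1A, CLK3, DYRK1B and CLK4. The steps from SRPK2 to SRPK1, from DYRK1A to CLK3 and from DYRK1B to CLK4 lay within 2 counting errors, so these neighbours could not be ordered at this depth. In untreated PC3 the order was SRPK1, SRPK2, CLK2, CLK1, CLK3, DYRK1A, DYRK1B and CLK4, and the steps from CLK3 to DYRK1A and from DYRK1B to CLK4 were within 2 counting errors. With morusin, CLK3 stood in the second place in 22Rv1, behind CLK2, and CLK1 in the second place in PC3, behind SRPK1. The untreated order of DYRK1B and CLK4 was not resolved in either line. In the treated libraries CLK4 stood above DYRK1B, by a step within 2 counting errors in 22Rv1 and beyond them in PC3. These errors cover counting only and leave out the spread between cultures.

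**Figure D1:**
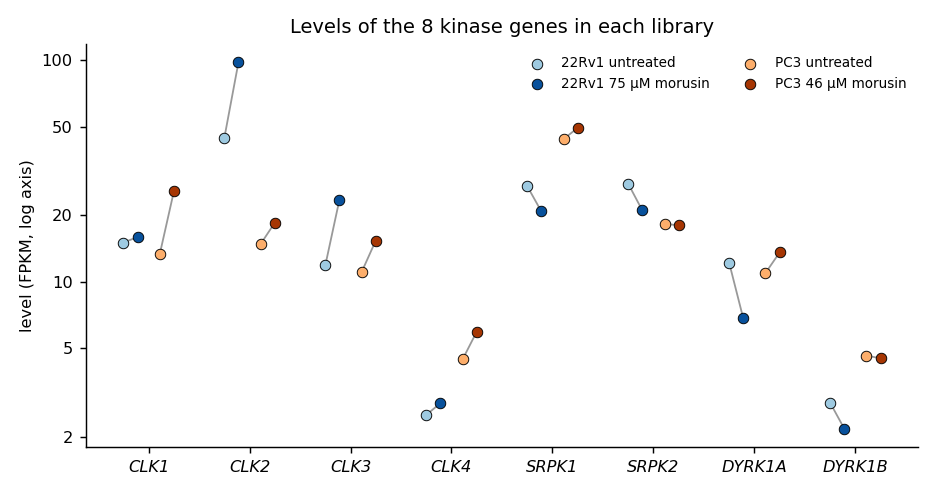
FPKM of each of the 8 genes (log axis) in the 4 libraries, with a line joining the untreated and treated library of each cell line. CLK2 in 22Rv1 goes from 44.6 to 98.0 FPKM and CLK1 in PC3 from 13.3 to 25.6, while DYRK1A in 22Rv1 goes from 12.2 to 6.83.

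After 6 h of morusin in 22Rv1, CLK2 and CLK3 were higher, while CLK1 and CLK4 were near their untreated levels. CLK2 was at 44.6 FPKM untreated and 98.0 FPKM treated, 2.20-fold higher, a log2 change of 1.12 on the FPKM + 1 scale that is used for all changes below. CLK3, a nuclear member of the same family, was at 11.9 and 23.5 FPKM, 1.98-fold higher, a log2 change of 0.93. Only 2.17% of the genes measured in this line had a larger change than CLK2, and 4.53% a larger one than CLK3. CLK1, the best studied CLK kinase, was at 15.05 and 15.9 FPKM, and its close relative CLK4 at 2.51 and 2.83 FPKM, log2 changes of 0.08 and 0.13. The counting errors of their log2 ratios, 0.083 for CLK1 and 0.20 for CLK4, were as large as the changes, so no difference was detectable at this depth for these genes.

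The SRPK and DYRK1 genes were lower in treated 22Rv1. SRPK1 was at 27.04 FPKM untreated and 20.8 treated, and SRPK2 at 27.7 and 21.0 FPKM, log2 changes of -0.36 and -0.38. DYRK1A was at 12.2 and 6.83 FPKM, a log2 change of -0.75, and 4.01% of the genes had a smaller value. DYRK1B, a kinase close to DYRK1A in sequence, was at 2.84 and 2.17 FPKM, a log2 change of -0.28. The log2 ratio of its plain FPKM values was -0.39, with a counting error of 0.19. Of the 8 genes, 1 was higher by 2-fold or more and 0 were lower by as much, against 3.48% and 1.02% of 13361 genes, 4.5% in all. The median of the 8 changes was -0.10 and that of all genes -0.01. There were 4 of the 8 above 0 and 4 below, against 49.4% and 50.6% of all genes. RNA of whole cultures was measured, so fewer cells of a type and less RNA per cell cannot be told apart.

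In PC3 the CLK gene with the largest change was CLK1. It was at 13.3 FPKM untreated and 25.6 FPKM treated, 1.92-fold higher, a log2 change of 0.89. The log2 ratio of its plain FPKM values was 0.94, with a counting error of 0.060. Only 1.5% of the genes measured in PC3 had a larger change than CLK1. CLK3 was at 11.1 and 15.4 FPKM, CLK4 at 4.46 and 5.96 FPKM and CLK2 at 14.8 and 18.5 FPKM, log2 changes of 0.44, 0.35 and 0.30. DYRK1A was higher here, at 10.96 and 13.6 FPKM, a log2 change of 0.28, and SRPK1 was at 44.1 and 49.6 FPKM, a log2 change of 0.17. SRPK2, at 18.3 and 18.0 FPKM, and DYRK1B, at 4.65 and 4.51 FPKM, differed by less than their counting errors, with log2 changes of -0.03 each. No member reached 2-fold in either direction in PC3, where 3.88% of 12907 genes did, 1.24% upwards and 2.64% downwards. The median of the 8 changes was 0.29, against -0.05 for all genes, and 6 members were above 0, where 44.2% of all genes were.

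The direction of the small changes depended on scaling. When each library was rescaled to the same FPKM sum, the median of all genes moved to -0.18 in 22Rv1 and -0.14 in PC3. CLK1 and CLK4 in 22Rv1 then stood at -0.11 and -0.02, and CLK2 at 0.92, which is under 2-fold. CLK3 stood at 0.74 and DYRK1A at -0.93. In PC3 CLK1 stood at 0.80, and the 4 CLK genes, SRPK1 and DYRK1A were above 0. The share of mitochondrial genes in the summed FPKM was 7.34% in untreated and 3.77% in treated 22Rv1 and 5.53% and 3.41% in PC3, and that of small RNA genes was 0.132% and 1.41% in 22Rv1 and 0.118% and 0.223% in PC3. With both classes left out of the sums, CLK2 in 22Rv1 stood at 0.89.

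**Figure D2:**
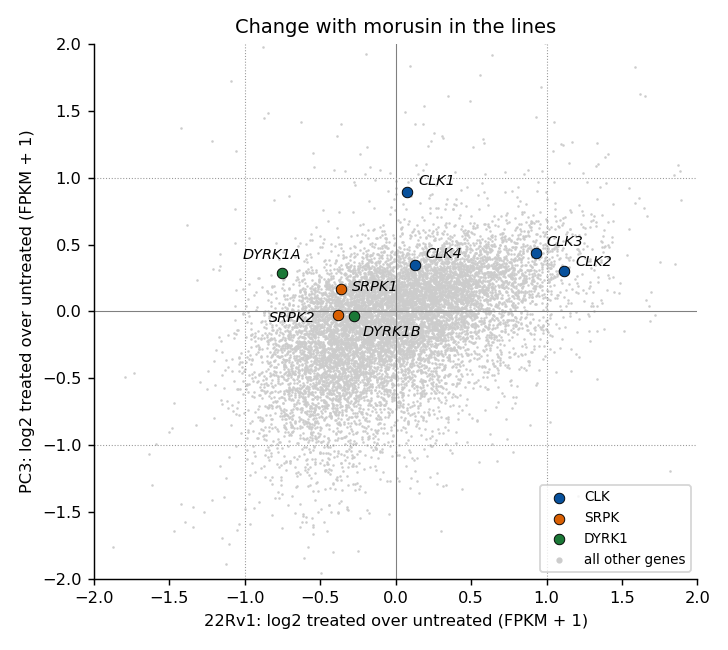
Log2 change with morusin in 22Rv1 (x axis) and in PC3 (y axis), both on the FPKM + 1 scale, for 11240 genes measured in both lines (grey; 81 lie outside the axes), with the 8 kinase genes coloured by family and dotted lines at 2-fold. CLK2 and CLK3 lie to the right with 22Rv1 changes of 1.12 and 0.93, CLK1 lies at the top with a PC3 change of 0.89, and DYRK1A lies at the upper left.

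The lines thus had different leading CLK genes. The change of CLK1 was 0.82 log2 units larger in PC3 than in 22Rv1, and 2.02% of 11240 genes had a larger gap in that direction. That of DYRK1A was 1.04 log2 units larger in PC3, and 0.899% of genes had a larger gap. CLK2 and CLK3 went the other way, with gaps of -0.82 and -0.49. SRPK1 and DYRK1A had opposite signs in the lines, below 0 in 22Rv1 and above 0 in PC3, as had 32.2% of all genes measured in both. With 1 library per group and different doses, the difference between the lines' responses could not be tested.

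Ratios between genes of the same library do not depend on how that library is scaled. The 4 CLK genes summed to 74.0 FPKM in untreated and 140 FPKM in treated 22Rv1, while the SRPK genes summed to 54.8 and 41.8 FPKM and the DYRK1 genes to 15.04 and 9.01 FPKM. The CLK sum was therefore 1.35 times the SRPK sum without morusin and 3.35 times with it. In PC3 the CLK sum was 43.7 and 65.4 FPKM, the SRPK sum 62.4 and 67.6 FPKM and the DYRK1 sum 15.6 and 18.1 FPKM, so that the CLK sum was 0.70 times the SRPK sum untreated and 0.968 times treated. The SRPK sum exceeded the CLK sum in both PC3 libraries and in neither 22Rv1 library. Each of the 8 ratios of a CLK gene to an SRPK gene was higher in the treated library in both lines. The log2 change of these ratios ran from 0.46 to 1.54 in 22Rv1 and from 0.15 to 0.97 in PC3. The 8 ratios of a CLK gene to a DYRK1 gene were higher too, by 0.47 to 1.97 in 22Rv1 and by 0.011 to 0.99 in PC3. In PC3 the ratios of CLK2, CLK4 and CLK3 to DYRK1A changed by only 0.011, 0.11 and 0.16. The counting errors of the PC3 changes of these CLK genes were 0.059, 0.11 and 0.065, and that of DYRK1A was 0.059. Shifts of this size are not resolved at this depth. The ratios of CLK genes to SRPK and DYRK1 genes share genes and libraries and are no independent tests. CLK2 carried much of the shift in 22Rv1, since the log2 change of the CLK sum over the SRPK sum was 1.31 with it and 0.91 without it. In PC3 it was 0.47 with CLK1 and 0.28 without it.

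**Figure D3:**
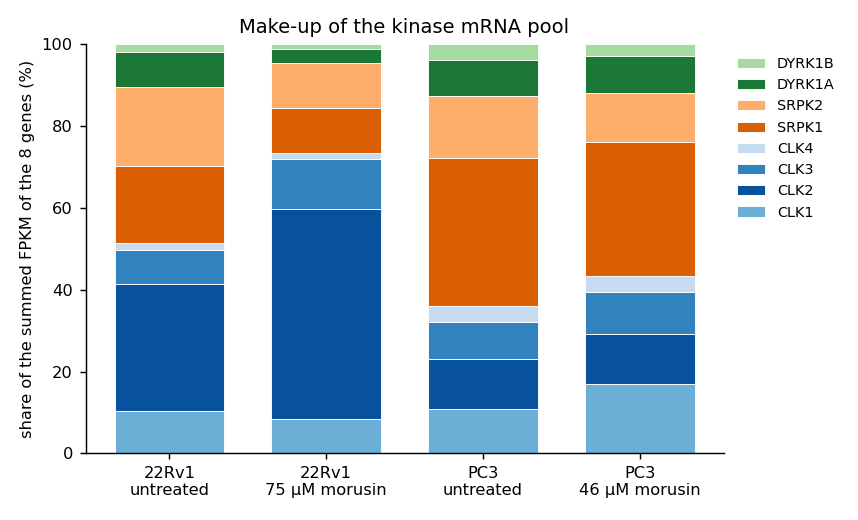
Share of each gene in the summed FPKM of the 8 kinase genes (y axis, percent) in the 4 libraries (x axis). CLK2 takes 31.0% in untreated and 51.3% in treated 22Rv1, and SRPK1 takes 36.2% in untreated and 32.8% in treated PC3.

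Transcript length moved with these differences. Across all genes, the median change in 22Rv1 was 0.45 for median transcript lengths under 1000 bases and -0.35 for lengths of 4000 to 6000 bases, and in PC3 it was 0.13 and -0.23. The CLK genes have median transcript lengths of 1866 to 2234 bases, while SRPK1 and SRPK2 have 4474 and 3650 bases, DYRK1A 2881 and DYRK1B 2228. With the trend on length removed, CLK2 and CLK3 in 22Rv1 stood at 1.08 and 0.91 and DYRK1A at -0.65, while SRPK1 and SRPK2 stood at -0.06 and -0.17. CLK1 in PC3 stood at 0.88, and SRPK1 there at 0.39. In 22Rv1 the changes of the CLK genes stayed above those of both SRPK genes and both DYRK1 genes after this step. The smallest difference from an SRPK gene was 0.049, of CLK1 over SRPK1. CLK1 stood at -0.02 and CLK4 at 0.05. The counting errors of the log2 ratios were 0.083 for CLK1, 0.20 for CLK4 and 0.044 for SRPK1. CLK1 and CLK4 are therefore not resolved from SRPK1 at this depth. In PC3, 6 of 8 differences from the SRPK genes and 6 of 8 from the DYRK1 genes stayed above 0. The exceptions were CLK2 and CLK4 against SRPK1 and against DYRK1A.

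**Figure D4:**
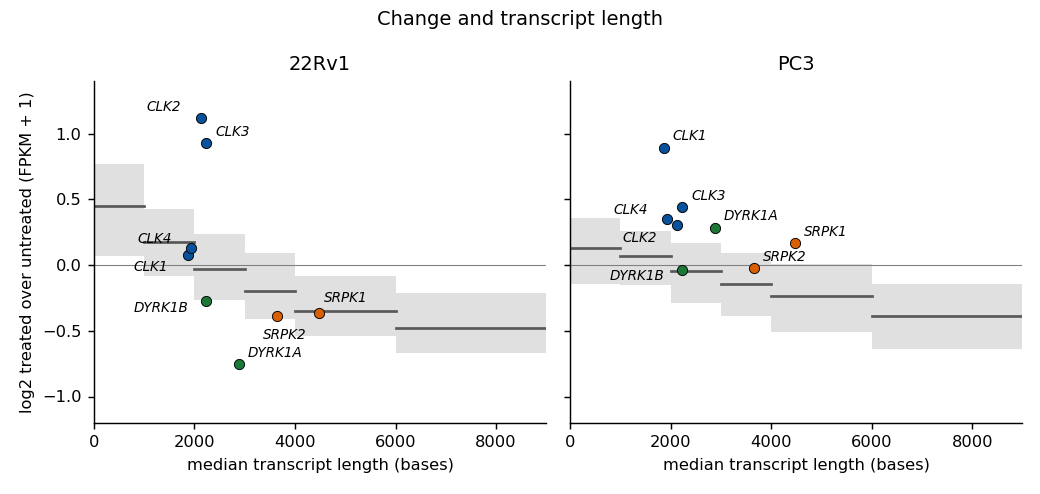
Log2 change with morusin (y axis, FPKM + 1 scale) against median transcript length (x axis, bases) in 22Rv1 (left) and PC3 (right). Grey boxes span the first to the third quartile of all genes in each length bin with a line at the median, the last bin holding all lengths of 6000 bases or more, and the points are the 8 kinase genes. CLK2 and CLK3 lie above the box of their bin in 22Rv1, and the 4 CLK genes, DYRK1A and SRPK1 do so in PC3.

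The test the design allowed asked whether the lines shared a response, with limma on all 4 libraries, the line as a block and 1 residual degree of freedom. No member passed the Benjamini-Hochberg threshold of 0.05, which 0.587% of 13980 genes passed, 0.351% as higher and 0.236% as lower. The smallest adjusted p-values among the members in limma were 0.17 for CLK3, with a mean log2 change of 0.68 (SE 0.22), and 0.18 for CLK2, with 0.71 (SE 0.23), and both genes were higher in both lines. Their unadjusted p-values in limma, 0.012 and 0.014, were the only 2 of the 8 under 0.05. On the gene lists described below, this count ran from 1 of 20 genes around the DYRK1 kinases to 6 of 12 reference genes. CLK1 had a mean log2 change of 0.48 (SE 0.24) with an adjusted p of 0.32 in limma, and CLK4 of 0.24 (SE 0.21). The SRPK and DYRK1 genes had means of -0.23 to -0.10 and adjusted p-values of 0.62 to 0.83 in limma. Over the alternatives run, the adjusted p-values ranged from 0.10 to 1.0 for CLK3, from 0.068 to 1.0 for CLK2 and from 0.26 to 1.0 for CLK1.

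Gene models around the kinases bear on what a gene-level value can hold. CLK1 (ENSG00000013441) lies at chr2:200853009-200864744, CLK2 (ENSG00000176444) at chr1:155262868-155278491, CLK3 (ENSG00000179335) at chr15:74598500-74645414 and CLK4 (ENSG00000113240) at chr5:178602664-178630615, on GRCh38. SRPK1 (ENSG00000096063) lies at chr6:35832966-35921342, SRPK2 (ENSG00000135250) at chr7:105110704-105399308, DYRK1A (ENSG00000157540) at chr21:37365573-37526358 and DYRK1B (ENSG00000105204) at chr19:39825350-39834201. In GENCODE 29, 8 of 15 CLK1 transcripts and 7 of 15 CLK4 transcripts are annotated as keeping an intron, as are 8 of 27 for CLK3 and none of 7 for CLK2. For SRPK1 there are 4 of 13, for SRPK2 2 of 15, for DYRK1A 4 of 24 and for DYRK1B 1 of 8. The gene table sums over transcripts, so a shift between spliced and intron-keeping forms of a gene cannot be seen in it.

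Genes that overlap a member on the other strand could share reads with it, since the sources used here do not say whether strand was counted. HCN3, an ion channel gene, overlaps the 5′ end of CLK2 over 909 bases and was at 11.1 FPKM untreated and 18.2 treated in 22Rv1 and at 1.51 and 1.58 in PC3. Its level was below that of CLK2 in all 4 libraries, and its part in the CLK2 values was not tested. EDC3, an mRNA decapping factor, overlaps CLK3 over 14857 bases and was at 11.6 and 8.27 FPKM in 22Rv1 and at 17.1 and 12.0 in PC3. KMT2E, a chromatin regulator, overlaps SRPK2 over 3658 bases and was at 19.6 and 10.3 FPKM in 22Rv1 and at 12.9 and 9.26 in PC3. The part of EDC3 in the CLK3 values and that of KMT2E in the SRPK2 values were not tested. LHFPL5, which overlaps SRPK1, stayed below 0.2 FPKM in all libraries.

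Promoter windows of one length around each start site were read from RefSeq on GRCh38.p14 and searched on both strands, with 18 windows for the 8 genes among 35116 in all. The heat shock element pair GAANNTTC was in none of the 18 and in 6.77% of all windows. In the other order, TTCNNGAA, it was in 1 window, of DYRK1A, and in 7.74% of all. The AP-1 site TGACTCA was in no member window and in 4.95% of all, and the full cAMP response element TGACGTCA was in none and in 1.85% of all. Its first letters TGACG, a match that any full element also gives, were in 6 of the 18 member windows, from 5 genes, and in 24.6% of all. The GC box GGGCGG was in 11 of the 18 and in 45.0% of all windows. The E-box CACGTG was in 4 of the 18, from 4 genes, and in 7.26% of all. Examples are shown for CLK genes with a larger change in either line, the TGACG letters in CLK1 and CLK3, read on the opposite strand as CGTCA, and the E-box in CLK2. Windows of CLK4, SRPK2 and DYRK1A also held TGACG, and windows of CLK4, DYRK1A and DYRK1B also held the E-box. Other matching windows are not printed, and the examples set up no contrast between the genes. Each line gives 30 bases on the gene's strand with the match in capitals.
CLK1: acgcgctcgctgCGTCAtcagtgttttcga
CLK3: tggcgacggctgCGTCAcgcgagggggcgg
CLK2: caactacgtgagCACGTGgtggcgcgcgcg
They lie at chr2:200864690-200864719, chr15:74615780-74615809 and chr1:155273559-155273588, on the minus strand except for CLK3. A match is a description of letters and shows no binding.

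The genes with the most similar pair of changes were sought among 7468 genes that reached 5 FPKM in each line, by the Euclidean distance between the log2 changes in 22Rv1 and PC3. Nearest to CLK1 were PER1, a circadian clock gene, at a distance of 0.030, the AP-1 subunit gene JUNB at 0.073 and the glutaredoxin gene GLRX3 at 0.077. The counting errors of the CLK1 log2 ratios, 0.083 in 22Rv1 and 0.060 in PC3, were near or above these distances. The order of these nearest genes is therefore not resolved. PER1 was at 9.80 and 10.2 FPKM in 22Rv1 and at 4.39 and 9.08 in PC3, and JUNB at 13.6 and 13.6 in 22Rv1 and 29.9 and 55.9 in PC3. Only these 3 genes lay within 0.1 of CLK1, and 4 lay within 0.1 of DYRK1A, the nearest being KLF10, a zinc finger factor, and TMEM33. By contrast, 17 genes lay within 0.1 of CLK2, led by TNNI3, and 55 within 0.1 of CLK3, among them SFI1 and the ribosomal protein gene RPL11. The other members lay in denser parts of the plane, with 122 to 220 genes within 0.1 for SRPK1, SRPK2, DYRK1B and CLK4 (131).

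A list of 9 related kinases held other members of the DYRK, HIPK and SRPK families and PRPF4B, a kinase of the spliceosome. In each line 7 were measured and 5 of them were below 0, where 50.6% of all genes in 22Rv1 and 55.8% in PC3 were, with medians of -0.43 in 22Rv1 and -0.32 in PC3. With the length trend removed these medians were -0.14 and -0.10. HIPK2, a nuclear kinase of stress signalling, was at 16.7 FPKM untreated and 7.05 treated in 22Rv1 and at 31.3 and 11.3 in PC3, and it was the only one at least 2-fold lower in either line, as were 1.02% of all genes in 22Rv1 and 2.64% in PC3. It was also the 1 gene on the lists below that passed the shared test, with a mean log2 change of -1.26 and an adjusted p of 0.033 in limma. That adjusted p ranged from 2.1e-06 to 1.0 over the alternatives and missed 0.05 in 5 of 10, namely the larger pseudocount, no filter on low values, median centring, removal of the length trend and a fit without the line. DYRK4, a relative of the DYRK1 kinases, was at 7.78 and 15.3 FPKM in 22Rv1 and at 5.72 and 8.42 in PC3. HIPK3 was at 7.62 and 4.38 FPKM in 22Rv1, and DYRK3 at 7.68 and 5.05 FPKM in PC3.

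Among 15 cyclin-dependent kinases and cyclins that act on RNA polymerase II or splicing, 9 were above 0 in 22Rv1, against 49.4% of all genes, and 8 in PC3, against 44.2%, with medians of 0.15 and 0.05. None of these was at least 2-fold higher, as were 3.48% of all genes in 22Rv1 and 1.24% in PC3. CCNT1, the cyclin of the elongation kinase CDK9, was at least 2-fold lower in both lines. Its levels were 18.6 and 8.42 FPKM in 22Rv1 and 12.8 and 5.84 in PC3, log2 changes of -1.06 and -1.01. The median length of CCNT1 transcripts is 6915 bases. All genes of 6000 bases or more had median changes of -0.48 in 22Rv1 and -0.39 in PC3. The part of length in the CCNT1 changes was not tested. A 2-fold size was reached downwards by 1.02% of all genes in 22Rv1 and 2.64% in PC3. The L-type cyclins sit in nuclear speckles with SR proteins. CCNL2 was at 45.1 and 86.3 FPKM in 22Rv1 and CCNL1 at 16.9 and 29.9 in PC3. CDK10 was at 54.2 and 99.8 FPKM in 22Rv1, and CCNK, the partner of CDK12 and CDK13, at 12.9 and 20.04 in PC3.

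The SR proteins are the shared substrates of CLK and SRPK kinases. Of 14 SR protein and TRA2 genes measured in 22Rv1, 10 were above 0 (median 0.27), against 49.4% of all genes, and none reached 2-fold, against 4.5%. The 12 reference genes had the same median of 0.27 there. In PC3 7 of 13 were above 0 (median 0.04), against 44.2% of all genes. SRSF7 was at 76.2 and 117 FPKM and TRA2A at 51.9 and 75.5 FPKM in 22Rv1. In PC3 SRSF3, the smallest SR protein, was at 63.1 and 112 FPKM and SRSF1, the founding SR protein, at 73.1 and 51.9 FPKM. Of 22 genes of other proteins with arginine and serine repeats or of nuclear speckles, 15 were above 0 in 22Rv1 (median 0.22), against 49.4% of all genes, and 11 in PC3 (median -0.01), against 44.2%. With the length trend removed the medians of these 22 genes were 0.15 in 22Rv1 and 0.17 in PC3. CLASRP, an SR-related protein that binds CLK4, was at 24.1 and 61.4 FPKM in 22Rv1 and was the only one of these at least 2-fold higher, a size that 3.48% of all genes reached. It was at 10.7 and 18.1 FPKM in PC3. LUC7L3, a U1-associated splicing factor, was at 24.9 and 11.1 FPKM in PC3, at least 2-fold lower as were 2.64% of all genes. The speckle scaffold gene SON was at 63.6 and 44.8 FPKM in 22Rv1, a log2 change of -0.50. That is near the 22Rv1 median of -0.48 for genes as long as SON, of 6000 bases or more.

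Partners of the SRPK and CLK kinases formed another list. Of 18 carriers, chaperones, substrates and opposing phosphatases, 12 were above 0 in 22Rv1 (median 0.08), against 49.4% of all genes, and 10 in PC3 (median 0.01), against 44.2%. AHSA1, a co-chaperone that binds SRPK1, was at 73.5 and 106 FPKM in 22Rv1 and at 89.9 and 122 in PC3. LBR, the lamin B receptor and an SRPK1 substrate, was at 44.0 and 31.4 FPKM in 22Rv1 and at 5.86 and 2.40 in PC3, at least 2-fold lower there, as were 2.64% of all genes. The phosphatase catalytic subunit gene PPP1CB was at 42.4 and 29.8 FPKM in 22Rv1, and PPP1R10, a nuclear regulator of that phosphatase, at 26.3 and 15.2 in PC3.

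The list around the DYRK1 kinases held their adaptor, substrates and readouts. Of 20 measured in each line, 17 were below 0 in 22Rv1 (median -0.27), where 50.6% of all genes were, and 8 were below 0 in PC3 (median 0.07), where 55.8% were. None reached 2-fold in either line, against 4.5% of all genes in 22Rv1 and 3.88% in PC3. The difference between the lines was not tested. DCAF7, the adaptor that binds DYRK1A and DYRK1B, was at 45.6 and 22.9 FPKM in 22Rv1 and at 57.7 and 47.8 in PC3. LIN52, the DYRK1A substrate in the DREAM complex, was at 11.04 and 8.06 FPKM in 22Rv1 and at 5.53 and 7.13 in PC3. NFATC3, a calcium-regulated factor whose nuclear export DYRK1 kinases favour, was at 13.01 and 8.81 FPKM in 22Rv1. Its log2 change of -0.51 was near the 22Rv1 median of -0.48 for genes of 6000 bases or more, to which it belongs. RCAN1, a calcineurin inhibitor and NFAT target, was at 18.5 and 12.5 FPKM in PC3. With the length trend removed the medians of these genes were -0.19 and 0.16, and with rescaling -0.46 and -0.03, the last below 0. Rescaling also took the medians of the cyclin-dependent kinase and partner lists below 0 in both lines and that of the SR proteins below 0 in PC3. The 12 reference genes had medians of 0.27 in 22Rv1 and 0.22 in PC3.

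**Figure D5:**
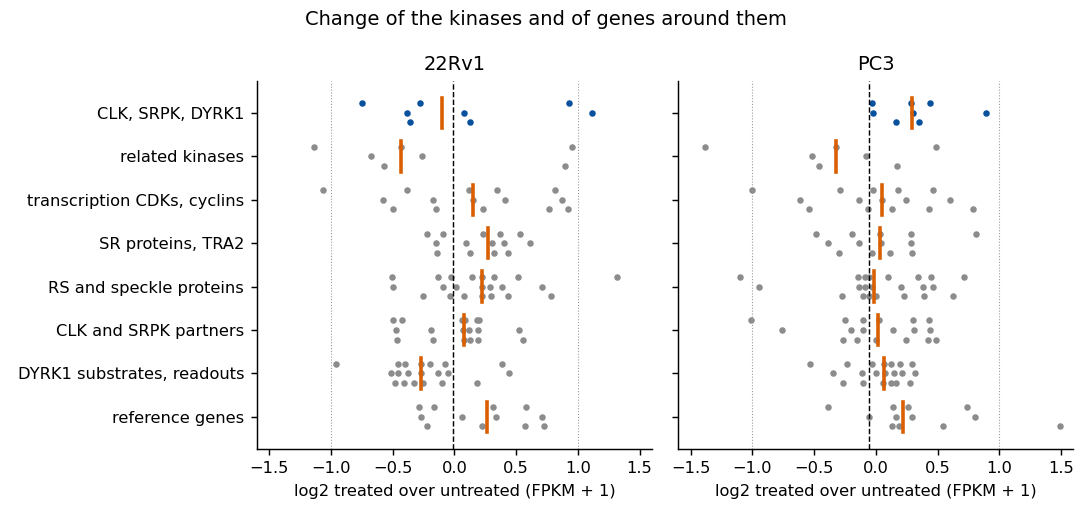
Log2 change with morusin (x axis, FPKM + 1 scale) of each measured gene of the kinase group and 7 other lists (rows) in 22Rv1 (left) and PC3 (right), with orange bars at list medians, a dashed line at the median of all genes and dotted lines at 2-fold. The genes around the DYRK1 kinases have a median of -0.27 in 22Rv1 and 0.07 in PC3, which becomes -0.03 with rescaling.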

How the data were processed

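Per the labels' protocols, total RNA was extracted with a column kit, made into TruSeq RNA v2 libraries and read as 150-base pairs on a HiSeq2500. The submitters' processing notes name Trimmomatic, HISAT2 and StringTie, with GRCh38 as the build. Versions, annotation release and strand setting were not given in the sources used here. Gene-level FPKM values were deposited by the authors for 60617 Ensembl identifiers in 4 columns, and each column name matches 1 library's label. FPKM is relative to a library's own total and is not a count, so no count test was used.

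Changes were log2 of (treated FPKM + 1) over (untreated FPKM + 1), which understates changes of low genes, for genes at 1 FPKM or more in either library, with 2-fold as the call. The shared response was fitted with limma 3.58.1 in R 4.3.3 on log2(FPKM + 1), with a treatment term and the cell line as a block that pairs the libraries of 1 line, for genes at 1 FPKM in at least 2 libraries. Tested on simulated libraries of 13980 genes, this fit called 50 of 50 genes raised by 2 log2 units, 36 of 50 raised by 1, and 10 of 13780 that were left alone. The simulation gave every gene noise with an SD of 0.25 log2 units and the same change in both lines. The lines' responses differ in the measured libraries, so these calls do not measure power or false calls there. Replicate cultures are not described, so the limma p-values do not measure a spread between cultures. They set the mean change against the difference between the lines' responses, and the lines also differ in dose and medium. Besides the 1 residual degree of freedom, they draw on 7.95 prior degrees of freedom estimated over all genes tested. Depth was inferred from the steps of low values of single-exon genes (600 to 5000 bases, tolerance 1.5%), of which 57 to 82 lay at the step per library. Counting errors of log2 ratios follow from it and cover counting error only.

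Symbols came from a gene name table matched by identifier (60261 matched). Positions, transcripts and median lengths of basic transcripts came from GENCODE 29, which may differ from the authors' annotation. Length trends were fitted with lowess (statsmodels 0.14.6). The members and gene lists were chosen with earlier results of these data known. Named genes are the 8 members, the 2 highest and 2 lowest changes per list and line among members at 5 FPKM or more, from which some are left out, and the 3 genes nearest to a member in the pair of changes. A few values are given for the other line, and LIN52 in 22Rv1, outside that rule. Some results, among them 1 promoter match, are not reported here. Other pseudocounts, filters, scalings and model terms were tried.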

Additional observations from a re-analysis of the deposited data

Results flagged for a closer look

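The change with morusin had opposite signs in the lines for 2 of the 8 kinase genes. It also did for 32.2% of the 11240 genes measured in both lines, so the count does not set the kinases apart. These differences were not tested, since each group held 1 library. For DYRK1A, at 12.2 and 6.83 FPKM in 22Rv1 and 10.96 and 13.6 FPKM in PC3, the change in PC3 was 1.04 log2 units above that in 22Rv1. For SRPK1, at 27.04 and 20.8 FPKM in 22Rv1 and 44.1 and 49.6 FPKM in PC3, it was 0.53 above.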

How the results depend on the processing

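The count of kinase genes at least 2-fold higher in 22Rv1 was 1 as deposited and became 0 when libraries were rescaled to equal sums, with CLK2 at 0.92, and 0 when mitochondrial and small RNA genes were left out of those sums, with CLK2 at 0.89. All other counts of the 8 genes past a threshold kept their value under the alternatives run. Among the log2 values of single kinase genes, only those within 0.13 of 0 took another sign under an alternative. CLK1 and CLK4 in 22Rv1 and SRPK2 and DYRK1B in PC3 were among them. This does not cover differences between kinase genes or list medians. The median of the cyclin-dependent kinase list in 22Rv1, for example, was 0.15 as deposited and -0.03 with equal sums. No member passed the shared test under any of the 10 alternatives, and without the line as a replicate block the test called 0 genes of 13980. With a single line left out there is no residual degree of freedom, so the changes within each line stand in for that fit, with no test. The comparison of families with the length trend removed and the sums without 1 CLK gene were chosen after seeing the data.

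Counts over all genes moved more. In 22Rv1, 465 genes were higher by 2-fold or more and 136 were lower, 77.4% of these calls being upward. The counts became 844 and 376 with a pseudocount of 0.1, 151 and 33 with 5, 255 and 351 (42.1% higher) with equal sums, 234 and 411 (36.3%) with the sums that leave out mitochondrial and small RNA genes, 292 and 183 (61.5%) without the length trend, and 273 higher among protein-coding genes alone, an alternative chosen after seeing the data. In PC3, 160 and 341 became 259 and 680 with a pseudocount of 0.1 and 74 and 85 (46.5% higher against 31.9%) with 5. There were 105 higher with a filter at 5 FPKM, 141 and 515 (21.5%) with the second rescaling and 216 lower without the length trend. Between the untreated lines, 2849 and 2751 became 1322 and 1419 with a pseudocount of 5. The shared test called 49 genes higher and 33 lower. It called 300 and 1234 with equal sums, 276 and 1486 with the second rescaling, 18 and 15 with a pseudocount of 5, 29 higher without a trend in the prior variance, 100 lower with a filter at 5 FPKM, 20 lower after median centring, 25 higher without the length trend (chosen after seeing the data) and 0 without a filter on low values. The causes were not tested.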
